A study of Mus musculus with 3 samples.

Results

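Axon guidance ligands and receptors were followed across 3 cell fractions, separated by how brightly they fluoresced, from the olfactory epithelium of transgenic mouse pups of the strain Tgn1-2G. The genes were those whose array symbol begins with Sema, Slit, Robo, Ntn, Nrp, Epha, Ephb, Efna or Efnb and a digit, or with Plxn or Unc5, together with Dcc. Sema3f, Nrp2 and Robo2 were left out by the same rule. It gave 68 of the 18193 genes on the array, and 51 of these reached the floor on 1 array or more. This floor is a signal of 104, the median of all probe set signals of the 3 arrays together. Of the 68, 3 match by name only and encode no guidance ligand or receptor: Unc50, Unc5cl and the antisense transcript Plxna4os1. They were counted with the rest and are described apart.

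The GFP+++ fraction held 1000000 strongly fluorescent cells and by the submitters' account was rich in immature neurons. The GFP+ fraction held 1300000 weakly fluorescent cells with a slight excess of mature neurons, and the GFP- fraction held 6800000 cells of every type with fewer immature neurons. All came from pups, male and female, aged 5 to 8 days, for which no treatment is named. Each fraction is labelled with the number 32, without saying of what. All fractions carry the same transgene, known from other work to place GFP under control elements of Neurog1, so that GFP marks progeny of Neurog1-expressing progenitors for as long as the protein lasts. Each fraction was hybridised to 1 array, so there is no replicate error, no test and no p-value, and each difference below has no replicate check.

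Olfactory sensory neurons are born from basal cells after birth as well as before it, and each sends an axon to the olfactory bulb, where axons of neurons with the same odorant receptor converge. Semaphorins bind plexins, the secreted class 3 semaphorins mostly through a neuropilin coreceptor. Slits bind Robo receptors, netrins bind Dcc and the Unc5 receptors, and membrane-bound ephrins bind Eph receptors on a neighbouring cell. In these neurons Nrp1 and Sema3a are known for the sorting of axons along the anterior-posterior axis, and ephrin-A ligands with EphA receptors for the sorting of axons near their glomeruli.

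The fractions were checked with marker genes. Gap43, the growth cone protein of immature neurons, gave a signal of 11233 in GFP+++, against 6006 in GFP+ and 6395 in GFP-. For Omp, which marks mature olfactory neurons, these were 5041, 10615 and 7748, and Neurog1 had 1492, 1363 and 1202. The neuronal markers were present in every fraction. Summed over 8 immature neuron markers the signal was 80971 in GFP+++, against 55285 in GFP+ and 67332 in GFP-, and over 8 mature neuron markers it was 53409, 77566 and 72566. Not every marker followed its list: Stmn1, of the immature markers, and Stoml3 and S100a5, of the mature ones, were highest in GFP-. The lists of non-neuronal cells were lowest in GFP+++ and highest in GFP-, as the plot of marker lists shows. In these bulk arrays, fewer cells of a type and less RNA per cell cannot be told apart.

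**Figure D1:**
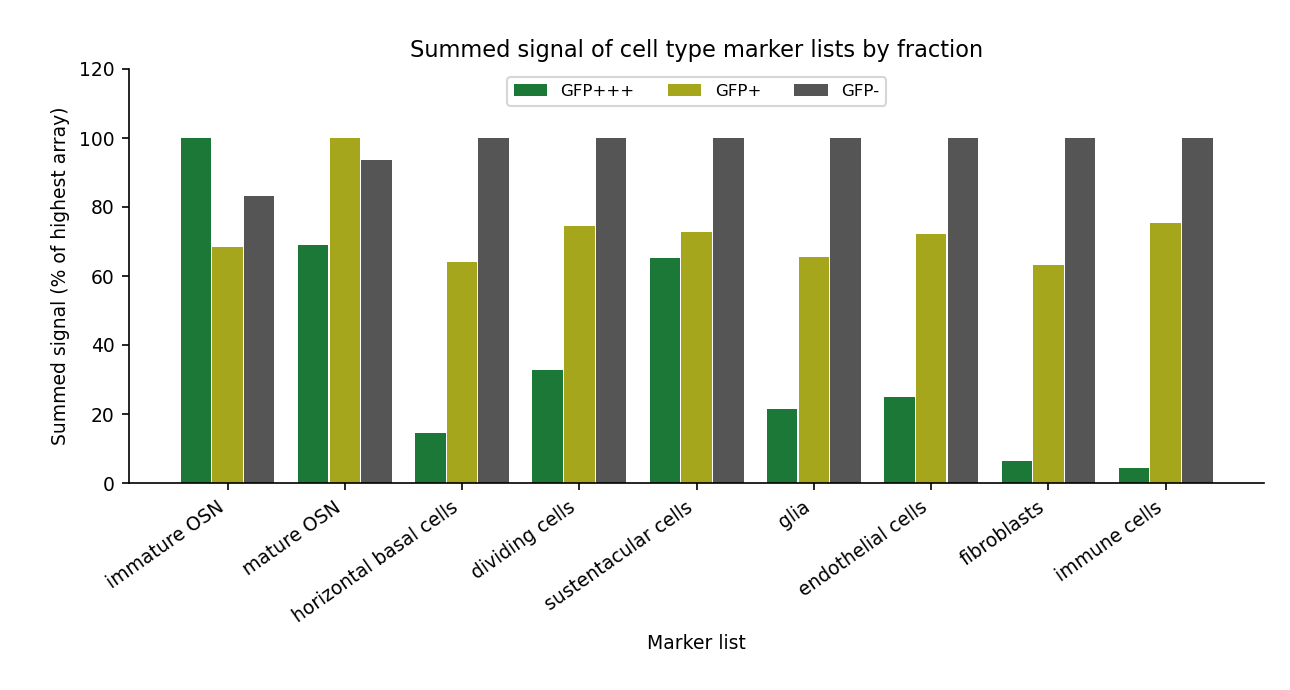
Summed signal of 9 cell type marker lists in GFP+++, GFP+ and GFP- (1 array each), as percent of the list's highest array; OSN stands for olfactory sensory neurons. The immature neuron list is highest in GFP+++, the mature neuron list in GFP+, and the 7 other lists in GFP-.

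Calls rest on a 2-fold threshold, taken after signals under the floor had been raised to it. In GFP+++ against GFP-, 1 of 51 guidance genes was at least 2-fold higher (1.96%) and 11 were at least 2-fold lower (21.6%). Among all 12235 genes compared, 1.92% were called higher and 12.4% lower. The share called higher lay near that of all genes, and the share called lower above it, with no test of the difference. With the median over probe sets, 9.80% of the guidance genes and 8.59% of all genes were called lower, so the shares then lay close together. In GFP+ against GFP-, 0 of 50 guidance genes were at least 2-fold higher and 3 were at least 2-fold lower (6%), where 0.607% and 0.804% of all 12196 genes were. In GFP+++ against GFP+, 1 of 46 was higher (2.17%) and 6 were lower, beside 0.985% and 9.34% of 11881 genes. These comparisons share arrays and are not independent of each other.

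The medians of the log2 folds were -0.22 in GFP+++ over GFP-, -0.03 in GFP+ over GFP- and -0.25 in GFP+++ over GFP+, beside 0.01, -0.01 and -0.02 for all genes. The sign of all 3 depended on the scaling of the arrays. When each array was scaled by its median in place of its trimmed mean, the median of all genes moved to 0.42, 0.13 and 0.25, and that of the guidance genes to 0.15, 0.13 and 0.029. Relative to all genes the guidance genes then lay at -0.27, -0.0060 and -0.22. With that scaling 3 guidance genes were at least 2-fold higher and 8 lower in GFP+++ than in GFP-, in place of 1 and 11, and among all genes 9.27% were higher and 8.58% lower.

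By the array on which a gene was highest, the 51 measured guidance genes fell into 14 highest in GFP+++, 15 in GFP+ and 22 in GFP-. Of the 29 measured ligands, 6 were highest in GFP+++, against 9 in GFP+ and 14 in GFP-, and of the 20 measured receptors 7, 5 and 8. Sema3b, Sema3g, Epha3, Ephb4 and Unc5c passed the floor in GFP- alone, and Unc5cl in GFP+++ alone. For these genes the highest array was fixed by passing it. Among all 12331 measured genes, 39.1% were highest in GFP+++, 24.8% in GFP+ and 36.1% in GFP-. Of the 29 ligands, 22 passed the floor in GFP+++ and all 29 in GFP-, and of the 20 receptors 16 and all 20. Of all 12331 measured genes, 10734 passed it in GFP+++ and 12031 in GFP-.

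**Figure D2:**
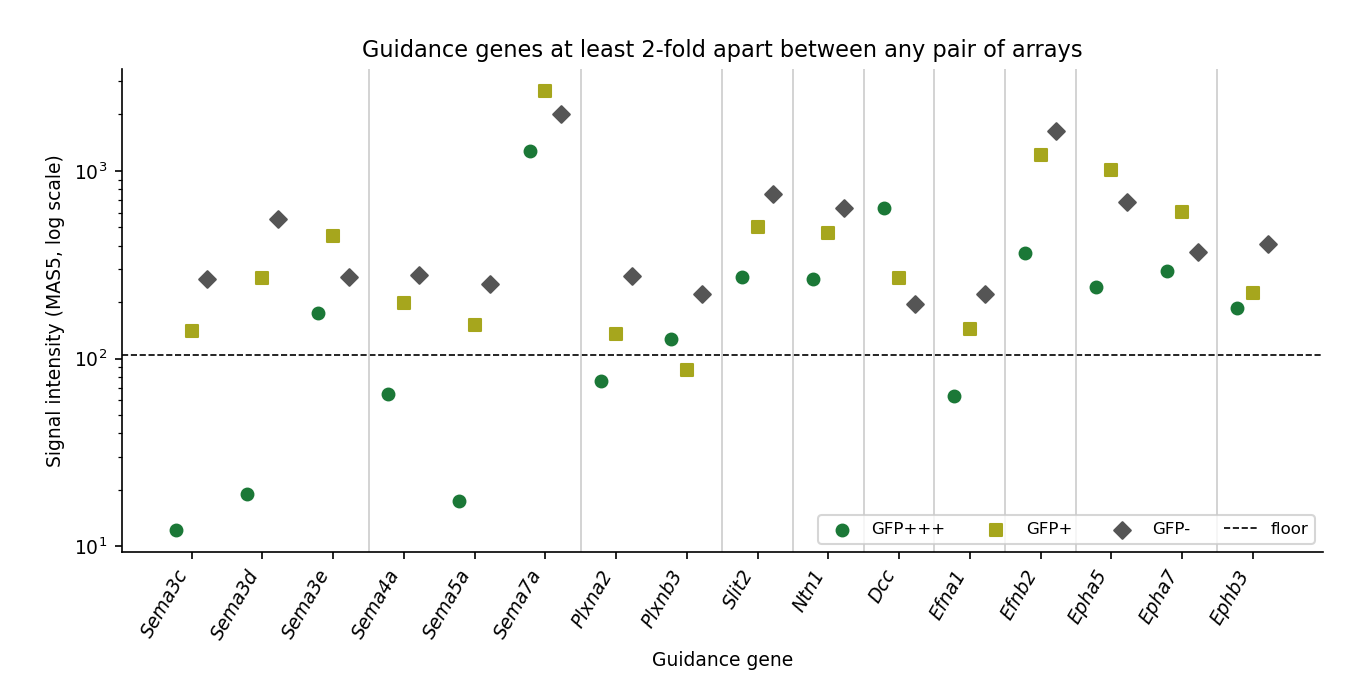
Signal of the 16 guidance genes at least 2-fold apart between any pair of arrays, on a log axis; each symbol is 1 array and the dashed line is the floor. Dcc is highest in GFP+++, Sema3e, Sema7a, Epha5 and Epha7 in GFP+, and the other 11 in GFP-.

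Dcc was the guidance gene with a call in favour of GFP+++, in both comparisons that hold this fraction. Sema3e, Sema7a, Epha5 and Epha7 were highest in GFP+ and at least 2-fold lower in GFP+++ cells than in GFP+. Efnb2 and Sema3d were lower in GFP+++ than on either other array, with GFP- the highest, and Sema3c, Sema4a, Sema5a, Plxna2, Slit2, Ntn1, Efna1 and Ephb3 were called lower in GFP+++ against GFP- but not in GFP+++ against GFP+. In GFP+ against GFP-, Plxna2, Plxnb3 and Sema3d were called lower, and for Plxnb3 this was the only call. Under 6 alternative settings of scaling, floor and probe set, the calls of GFP+++ against GFP- that held every time were those of Dcc, Epha5, Sema3d and Slit2, and in GFP+++ against GFP+ those of Dcc and Epha5. In GFP+++ against GFP-, the median over probe sets, which takes in those under the floor, ended the calls of Efna1, Efnb2, Ntn1, Plxna2, Sema3c and Sema5a, and a floor at the 65th percentile those of Efna1, Ephb3, Plxna2, Sema3c, Sema4a and Sema5a. In GFP+++ against GFP+, the median over probe sets ended the calls of Efnb2, Epha7, Sema3d and Sema7a, the higher floor those of Sema3d and Sema3e, and median scaling those of Epha7 and Sema7a. None of the 3 calls of GFP+ against GFP- held under all 6.

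The non-neuronal marker lists were also highest in GFP-. The summed signal of 6 fibroblast markers was 2052 in GFP+++, against 20071 in GFP+ and 31693 in GFP-, with 5, 6 and 6 of them above the floor. For 7 immune markers it was 647, 11102 and 14759, with 4, 7 and 7 above the floor. For the 4 glial markers on the array it was 1418, 4325 and 6593, with 1, 4 and 4. For 8 endothelial markers it was 402, 1161 and 1606, with 2, 5 and 6. Of the endothelial markers Cdh5 was highest in GFP+, with 40.4 in GFP+++, 132 in GFP+ and 117 in GFP-. The sums of these lists share the order of Sema3d, Sema3c, Slit2 and Efnb2 across the arrays. Those of horizontal basal, dividing and sustentacular cells, given below, have the same order. Not all guidance genes highest in GFP- had that order: Efna4, Efnb1 and Plxnb3 were lowest in GFP+.

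Among the epithelial cells, 6 horizontal basal cell markers summed to 324 in GFP+++, 1439 in GFP+ and 2248 in GFP-, with 1, 5 and 5 above the floor. The 5 markers of dividing cells on the array summed to 3128, 7121 and 9568, and the 5 of sustentacular cells, the supporting cells, to 39157, 43699 and 59947, with all 5 above the floor on each array. None of the 57 markers on the array was listed at 0. The sum of the mature neuron list was highest in GFP+, though Stoml3 and S100a5 of that list were highest in GFP-. Among the guidance genes highest in GFP+ were Epha5, Epha7, Sema3e, Sema7a, Efna3, Efnb3, Plxna3 and Plxna4. The part of these cells in the guidance signals was not tested.

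The sequences before the annotated starts of Epha5, Epha7, Sema3e and Sema7a are shown because these are the 4 genes highest in GFP+ that were also called lower in GFP+++ than in GFP+. The other genes highest in GFP+ stayed within 2-fold there. They are the 250 bases before the start, 5′ to 3′ on the gene's strand, from RefSeq, and capitals mark a TAATTA match. For Epha7, with 2 annotated starts, the first by coordinate is shown.
Epha5 (GRCm38.p6, chr5:84417383-84417632, - strand): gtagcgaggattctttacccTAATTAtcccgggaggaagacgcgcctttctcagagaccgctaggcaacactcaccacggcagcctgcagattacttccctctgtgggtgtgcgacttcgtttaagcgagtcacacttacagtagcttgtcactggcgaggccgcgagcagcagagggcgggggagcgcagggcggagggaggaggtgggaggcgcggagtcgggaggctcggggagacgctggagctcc
Epha7 (GRCm38.p6, chr4:28812881-28813130, + strand): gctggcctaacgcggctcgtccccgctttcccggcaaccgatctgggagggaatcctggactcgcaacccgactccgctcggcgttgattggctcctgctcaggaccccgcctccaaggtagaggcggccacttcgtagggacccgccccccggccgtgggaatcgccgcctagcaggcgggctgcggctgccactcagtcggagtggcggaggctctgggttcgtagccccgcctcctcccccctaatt
Sema3e (GRCm38.p6, chr5:14025026-14025275, + strand): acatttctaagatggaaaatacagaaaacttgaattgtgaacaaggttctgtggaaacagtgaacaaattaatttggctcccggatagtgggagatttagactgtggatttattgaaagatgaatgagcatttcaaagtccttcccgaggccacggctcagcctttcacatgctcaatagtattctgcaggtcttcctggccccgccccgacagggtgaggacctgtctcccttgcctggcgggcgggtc
Sema7a (GRCm38.p6, chr9:57939862-57940111, + strand): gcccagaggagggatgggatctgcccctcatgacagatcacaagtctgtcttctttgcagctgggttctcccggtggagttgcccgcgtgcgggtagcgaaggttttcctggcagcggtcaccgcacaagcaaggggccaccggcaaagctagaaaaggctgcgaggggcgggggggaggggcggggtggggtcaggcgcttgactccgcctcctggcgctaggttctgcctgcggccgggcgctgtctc

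The G and C content of these windows was 62.4% for Epha5, 69.2% for Epha7, 48% for Sema3e and 66.4% for Sema7a, and the CG dinucleotides numbered 20, 25, 7 and 17. Over all 32851 windows of the table the medians were 52.4% and 6, and over the 56 windows of the measured guidance genes 64.4% and 16. On both measures Epha7 lay above the medians of the guidance genes and Sema3e below them, with Epha5 and Sema7a between these genes. A pair of motifs was searched on both strands in the 300 bases that also take in the 50 bases after the start: TAATTA, a core that many homeodomain factors bind, and the palindromic Ebf motif. TAATTA was in the Epha5 window, beginning 230 bases before the start, and not in the other 3, and 5.29% of all promoters hold it. The Ebf motif was in none of the 4, and 0.904% of all promoters hold it. Of the 68 guidance genes 58 were in the table. Of their 72 promoters 3 held TAATTA (Efna1, Epha5 and Robo3) and 3 held the Ebf motif (Plxnb1, Robo3 and Sema4b). A match describes these letters only, and a missing one says only that they are not in the window.

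The 6 class 3 semaphorins, which are secreted, had log2 folds from -2.41 to 0.39 in GFP+++ over GFP-. Sema3d had a signal of 19.0 in GFP+++, against 269 in GFP+ and 556 in GFP-. It had the lowest fold of any guidance gene in GFP+++ against GFP-, at least 5.33-fold lower, and was also 2.07-fold lower in GFP+ than in GFP-. Sema3c had 12.2 in GFP+++, under the floor, 140 in GFP+ and 264 in GFP-, and was at least 2.53-fold lower in GFP+++ cells than in GFP-. The order of the arrays was the same for both genes, with GFP+ between the others. The other probe set of each gene lay under the floor on every array.

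Sema3e, the ligand of plexin D1, went another way, with 176 in GFP+++, 452 in GFP+ and 272 in GFP-. It was 2.57-fold lower in GFP+++ than in GFP+, and its log2 fold in GFP+ over GFP- was 0.73. Its other probe sets that passed the floor gave bounds of log2 -1.62 and -0.98 in GFP+++ over GFP+. In GFP+ over GFP- they gave 0.29 and -0.05 beside 0.73, so the excess in GFP+ over GFP- was not shared by all of them. Sema3a, the repellent that acts through Nrp1, was within 2-fold on all arrays, with 720 in GFP+++, 549 in GFP+ and 548 in GFP-. Sema3b and Sema3g passed the floor in GFP- alone, with 115 and 107.

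Of the other semaphorins, which are membrane-bound or, as Sema7a, held by a lipid anchor, 11 of 13 were measured. Sema7a had 1276 in GFP+++, against 2669 in GFP+ and 2018 in GFP-, and was 2.09-fold lower in GFP+++ than in GFP+. Its other probe set lay under the floor on every array. Sema4a had 64.5 in GFP+++, 197 in GFP+ and 278 in GFP-, at least 2.66-fold lower in GFP+++ cells than in GFP-. Another probe set of Sema4a gave a bound of log2 -1.03 in that comparison. Sema5a had 17.3 in GFP+++, 151 in GFP+ and 250 in GFP-, at least 2.39-fold lower in GFP+++ cells than in GFP-. Sema4a and Sema5a thus passed the floor in GFP+ and GFP- only. The other probe sets of Sema5a lay under it on every array.

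A second set of semaphorins lay on the GFP+++ side without passing 2-fold. Sema4g had 1608 in GFP+++, 1418 in GFP+ and 1004 in GFP- (log2 0.68 in GFP+++ over GFP-), and Sema4d, a ligand of plexin B1, had 1680, 1515 and 1200 (0.48). Sema4f (0.35), Sema6c (0.25) and Sema4c (0.23) were nearer to 0, and Sema6a was at 0.03. On the other side lay Sema6d, with 861 in GFP+++, against 1287 in GFP+ and 1433 in GFP- (-0.73), and Sema4b (-0.55). With median scaling Sema4g passed 2-fold in GFP+++ over GFP-, at log2 1.10. In all, 6 of these 11 semaphorins (54.5%) had a log2 fold above 0 in GFP+++ over GFP- and 5 below it. That share lay near the 50.7% of all genes. The counts were the same with each of the 3 scalings, though with median scaling the median of all genes itself lay at 0.42.

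Nrp1 and the plexins, the receptors for semaphorins, were all measured, 10 genes in total, and 8 of them lay within 2-fold in every comparison. Plxna2 had 76.0 in GFP+++, 135 in GFP+ and 275 in GFP-. In GFP+++ its signal lay at least 2.63-fold under that in GFP-, and it was 2.03-fold lower in GFP+ than in GFP-. Plxnb3 had 127, 87.4 and 221 and was at least 2.11-fold lower in GFP+ cells than in GFP-, on a probe set of the _s_at kind, which may bind several transcripts. Without such probe sets that call was lost. Both are among the dim members, near the floor.

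Nrp1, the coreceptor of Sema3a, had 2897 in GFP+++, 2030 in GFP+ and 2758 in GFP-. Its log2 fold in GFP+++ over GFP- was 0.07, which turned to -0.01 with quantile normalization, and its other 3 probe sets lay between -0.22 and 0.16. Plxna1, a plexin that pairs with neuropilins, had 1839 in GFP+++, against 1805 in GFP+ and 1088 in GFP-, so both GFP positive fractions lay above GFP-, at log2 0.76 and 0.73. With median scaling it passed 2-fold in GFP+++ over GFP-, at log2 1.17.

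Plxna3 and Plxna4, of the same subfamily, were instead highest in GFP+. Plxna3 had 853 in GFP+++, against 1388 in GFP+ and 951 in GFP-, and Plxna4 had 328, 616 and 382. In GFP+++ over GFP+ their log2 folds were -0.70 and -0.91, and in GFP+ over GFP- 0.55 and 0.69. Their log2 folds in GFP+++ over GFP-, -0.16 and -0.22, turned to 0.26 and 0.20 with median scaling.

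Plxnb2, which takes up class 4 semaphorins, had 4851 in GFP+++, against 3696 in GFP+ and 3984 in GFP-, and Plxnb1 had 1250, 1042 and 1005. Plxnc1, the receptor of Sema7a, had 314 in GFP+++, 238 in GFP+ and 219 in GFP-, an order opposite to that of its ligand at the GFP+++ end. Its second probe set above the floor did not share that order, with a log2 fold of -0.13 in GFP+++ over GFP- beside 0.52. Plxnd1, the receptor of Sema3e that is well known from blood vessels, had 237 in GFP+++, 346 in GFP+ and 418 in GFP- (log2 -0.82).

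Slit2, a secreted repellent, had 271 in GFP+++, 501 in GFP+ and 753 in GFP-. It was 2.78-fold lower in GFP+++ than in GFP-, and its second probe set above the floor gave a bound of log2 -1.25 beside -1.48. Slit1 did not share this, with 386 in GFP+++, 436 in GFP+ and 366 in GFP- (log2 0.08), though its second probe set lay at -0.16. Slit3 did not pass the floor. Robo1, a Slit receptor of olfactory axons, had 1556, 1306 and 1327, a log2 fold of 0.23 in GFP+++ over GFP-, and was the 1 Robo receptor of 3 to pass the floor.

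**Figure D3:**
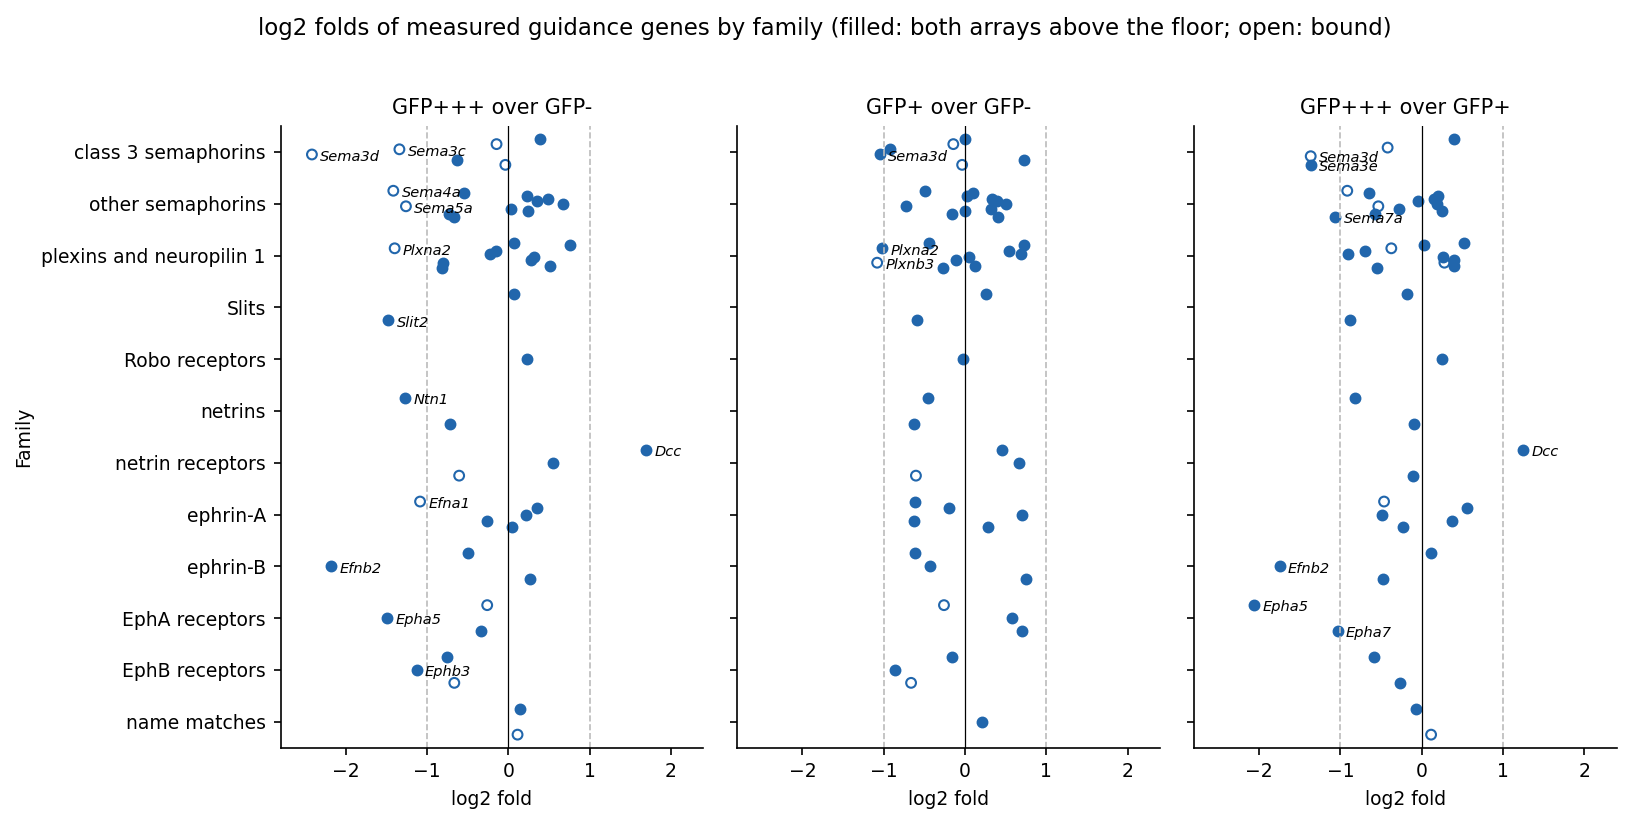
log2 fold of each measured guidance gene in GFP+++ over GFP-, GFP+ over GFP- and GFP+++ over GFP+, by family; filled points had both arrays above the floor, open points are bounds and dashed lines mark 2-fold. Dcc lies alone beyond 2-fold on the higher side, while Sema3d, Efnb2 and Epha5 lie farthest to the lower side.

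The netrin pair of ligand and receptor went opposite ways. Dcc, the receptor through which netrin 1 attracts axons, had 633 in GFP+++, 267 in GFP+ and 196 in GFP-, all above the floor. It was 3.23-fold higher in GFP+++ cells than in GFP- and 2.37-fold higher than in GFP+. Of all 12235 genes compared, 19 had a log2 fold at least as high in GFP+++ over GFP-, Dcc included, and 40 of 11881 did in GFP+++ over GFP+.

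A second probe set of Dcc had 375 in GFP+++, 144 in GFP+ and 107 in GFP-, with log2 folds of 1.80 in GFP+++ over GFP- and 1.38 in GFP+++ over GFP+, beside 1.69 and 1.24. A further probe set of Dcc lay under the floor on every array. Ntn1, its ligand, had 264 in GFP+++, against 466 in GFP+ and 637 in GFP-, and was 2.41-fold lower in GFP+++ than in GFP-. That call was lost with median scaling, at a log2 fold of -0.86, whereas Dcc then stood at 2.11. The other probe set of Ntn1 lay under the floor on every array. Ntn4 had 164, 176 and 271 (log2 -0.72 in GFP+++ over GFP-).

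Unc5b, a netrin receptor of the repulsive kind, had 1358 in GFP+++, 1469 in GFP+ and 928 in GFP-. Its log2 folds over GFP- were 0.55 in GFP+++ and 0.66 in GFP+, so that both GFP positive fractions lay above GFP-, as for Plxna1. Unc5c passed the floor in GFP- alone, with 159. Unc5a and Unc5d did not pass it.

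Of the ephrins, all 8 were measured, and Efnb2 stood apart. Efnb2, a transmembrane ligand of EphB receptors, had 363 in GFP+++, 1220 in GFP+ and 1641 in GFP-. It was 4.52-fold lower in GFP+++ than in GFP- and 3.36-fold lower than in GFP+, and its next probe set gave log2 folds of -1.46 and -0.91. The median over its probe sets, of which 1 lay under the floor on all arrays, did not pass 2-fold. Efnb3 was highest in GFP+, with 397 in GFP+++, against 553 in GFP+ and 328 in GFP-, and its log2 fold of 0.75 was the highest of any guidance gene in GFP+ over GFP-. Efnb1 had 188, 173 and 265.

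Among the lipid-anchored ephrin-A ligands, Efna3 had 2013 in GFP+++, 2817 in GFP+ and 1733 in GFP-. Its second probe set gave 1919, 2706 and 1638, so that its log2 fold in GFP+ over GFP- was 0.70 on the first and 0.72 on the second. Efna5 had 2087 in GFP+++, 2449 in GFP+ and 2014 in GFP-, but its order depended on the scaling. Its log2 fold of 0.05 in GFP+++ over GFP- turned to -0.02 with quantile normalization, and that of -0.23 in GFP+++ over GFP+ to 0.05 with median scaling. Efna1 had 63.1, 144 and 221, at least 2.12-fold lower in GFP+++ cells than in GFP-, a call lost with median scaling and with quantile normalization. Its other probe set lay under the floor on every array. Efna2 (log2 0.35 in GFP+++ over GFP-) and Efna4 (-0.26, which turned to 0.15 with median scaling) lay nearer to 0.

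Of 13 Eph receptors 6 were measured, and 4 of these, Epha5, Epha7, Ephb1 and Ephb3, passed the floor on all arrays. These 4 had log2 folds below 0 in GFP+++ over GFP-, of which that of Epha7 (-0.34) turned to 0.08 with median scaling. Epha3 and Ephb4 passed the floor through GFP- alone, so their direction was fixed by passing it. Epha5, a receptor of ephrin-A ligands, had 242 in GFP+++, 1010 in GFP+ and 679 in GFP-. It was 4.18-fold lower in GFP+++ than in GFP+, the lowest guidance gene of that comparison, and 2.81-fold lower in GFP+++ than in GFP-.

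Its 2 other probe sets above the floor on all arrays gave log2 folds of -2.19 and -1.82 in GFP+++ over GFP+, beside -2.06. In GFP+ over GFP- they gave 0.82 and 0.71, beside 0.57. Epha7 had 293 in GFP+++, against 601 in GFP+ and 370 in GFP-, and was 2.05-fold lower in GFP+++ than in GFP+. All 4 of its probe sets were lower in GFP+++ than in GFP+ (log2 -1.05 to -0.68), and the call was lost with median scaling, with quantile normalization and with the median over probe sets. The receptor genes Epha5 and Epha7 and the ligand gene Efna3 were thus each highest in GFP+.

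Ephb1 and Ephb3, receptors of the EphB class, were both lowest in GFP+++ and highest in GFP-, although for Ephb3 the log2 fold of -0.26 in GFP+++ over GFP+ turned to 0.01 with median scaling. Ephb3 had 187 in GFP+++, against 224 in GFP+ and 408 in GFP-, and was 2.18-fold lower in GFP+++ than in GFP-, a call lost with median scaling and with quantile normalization. Ephb1 had 357, 535 and 600 (log2 -0.75). Ephb4 had 165 in GFP-, and Epha3 had 125.

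**Figure D4:**
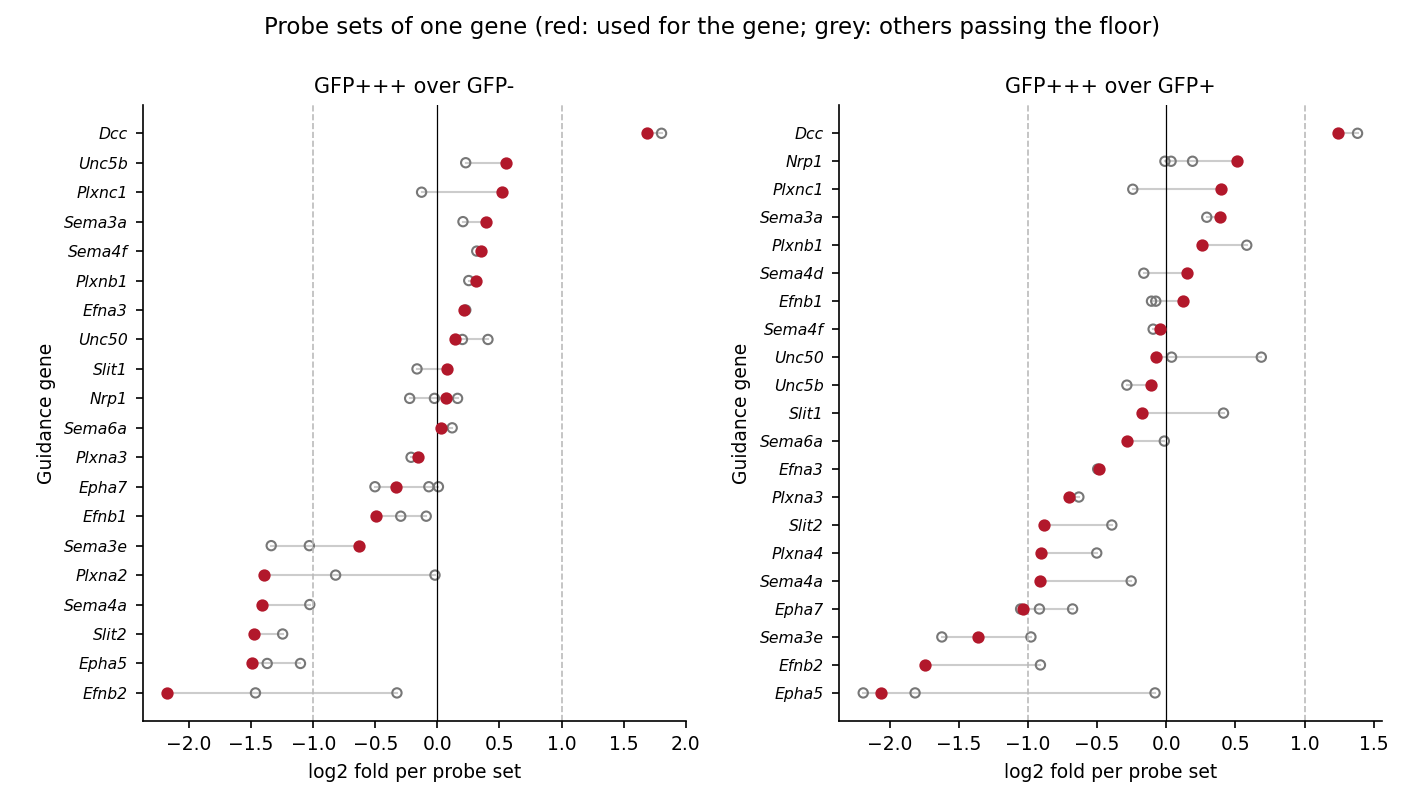
log2 fold of every probe set that passed the floor, for guidance genes with more than 1 such probe set, in GFP+++ over GFP- and GFP+++ over GFP+; red points are the probe sets used for the gene. The probe sets of Dcc, Epha5, Slit2 and Sema4a lie on the same side of 0, while those of Nrp1, Plxnc1 and Slit1 lie on both sides. All points of Sema4a, the second probe set of Slit2 and, in GFP+++ over GFP+, a further one of Epha5 are bounds. These lay under the floor in GFP+++ and could not lie above 0.

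The spread of probe sets of 1 gene is a difference between probe sets read on the same arrays. It holds no error between arrays or RNA samples. Where a guidance gene had more than 1 probe set measured on both arrays, their log2 folds differed with a pooled SD of 0.22 in GFP+++ against GFP- (16 genes), 0.23 in GFP+ against GFP- (19 genes) and 0.26 in GFP+++ against GFP+ (16 genes). Over all genes it was 0.30, 0.24 and 0.30. Of the called genes with a further probe set above the floor, 6 of 6, 1 of 1 and 5 of 5 had all of these on the same side of 0. A probe set that passed the floor on 1 array alone could not have gone the other way.

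Partners of the receptors were read from a list of 70 genes chosen for known function. It takes in 16 coreceptors and other guidance proteins, among them Met, Flrt2, Flrt3 and Draxin, beside partners inside the cell. Of the 70 genes 59 could be compared. In GFP+++ against GFP- 1 was higher and 6 were lower by the same threshold, 1.69% and 10.2% of the list beside 1.92% and 12.4% of all genes, and the median log2 fold was -0.04. These shares lay near those of all genes, so the genes named are a description of the list. Vav3, an exchange factor for Rac that acts in Eph signalling, was at log2 1.03, a bound since GFP- lay under the floor. The lower ones were Met, which pairs with B plexins (-2.11), Dock1, a Rac activator downstream of Dcc (-1.90), the Robo partners Srgap3 (-1.40) and Srgap2 (-1.17), and Flrt3 (-1.60) and Flrt2 (-1.35), ligands of Unc5 receptors, the last pair being bounds.

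In GFP+ against GFP- 0 of the 59 passed 2-fold in either direction. In GFP+++ against GFP+ 3 were higher and 3 lower, 5.08% of the list each way, beside 0.985% and 9.34% of all genes. The higher ones were Gng2, a G protein subunit, at 1.18, Ablim1, an actin-binding protein tied to netrin signalling, at 1.12, and Draxin, a secreted protein that binds Dcc, at 1.01, a bound. Draxin had 210 in GFP+++, 82.6 in GFP+ and 112 in GFP-, highest on the same array as Dcc. Lower were Met (-1.55), Dock1 (-1.23) and Srgap2 (-1.03).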

How the data were processed

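Per the labels' protocols, total RNA of each sorted fraction was turned into biotin-labelled cRNA. The authors used MAS5, per the submitters' processing notes, and deposited a linear signal intensity for each probe set. No version or setting of it is given in the sources used here. Without detection calls a probe set with no target still has a positive value.

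Each array was scaled to a common 2% trimmed mean, 500.0 as deposited. Symbols came from the platform annotation, and all 68 guidance genes matched the RefSeq table of GRCm38.p6 with 0 symbols changed. Each gene took its probe set with the highest mean signal, and 148 probe sets stood for the 68 genes. Signals under the pooled median of 104 were raised to it, and where 1 array lay under it the fold is a bound, written with "at least". Steps ran in Python 3.11.15 with pandas 2.3.3 and scipy 1.17.1, and were tested on simulated arrays. The genes named are those at least 2-fold apart in any comparison, the brightest of each family and Dcc, and others were added for their family. The guidance genes, lists and rules were chosen with earlier results of these data known. The number of arrays, 1 per fraction, limits the precision. Alternatives changed the scaling, the floor, the probe set and the fold threshold.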

Additional observations from a re-analysis of the deposited data

How the results depend on the processing

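No paired analysis was possible because each fraction has 1 array, and for the same reason no array could be left out. Median scaling reversed the median log2 fold of the guidance genes in GFP+++ over GFP- (0.15), GFP+ over GFP- (0.13) and GFP+++ over GFP+ (0.029), and the floor at the 65th percentile reversed those over GFP- (0.073 and 0.075), with fewer dim genes compared. Relative to all genes the medians lay at -0.27, -0.0060 and -0.22 with median scaling, and those over GFP- at 0.01 and 0.06 with that floor. Under the other alternatives none of these medians lay above 0. Their moves were smaller than the SD between probe sets of single genes over all genes (0.30, 0.24 and 0.30). That SD describes single genes and is no measure of error for a median of many. With the median over probe sets the medians of the guidance genes came to -0.04 in GFP+++ over GFP-, 0 in GFP+ over GFP- and -0.06 in GFP+++ over GFP+. All genes then lay at 0 in each, so most of the lower median in the GFP+++ comparisons was gone. Of genes called higher in GFP+++ against GFP-, 1 became 3 with median scaling (6.12%, beside 9.27% of all genes). At a threshold of 1.5-fold it also became 3 (5.88%, beside 9.31%), and in GFP+ against GFP- 0 became 7 (14%, beside 4.67%). Of those lower in GFP+++ than in GFP-, 11 became 5 with the higher floor (13.9%, beside 7.61% of all genes), 5 with the median over probe sets (9.80%, beside 8.59%) and 20 at 1.5-fold (39.2%, beside 20.5%). Of those lower in GFP+ than in GFP-, 3 became 0 with median scaling and with the median over probe sets. They became 1 with quantile normalization (2.08%, beside 0.817%) and with the higher floor (2.78%, beside 0.391%), and 13 at 1.5-fold (26%, beside 7.13%). Of those lower in GFP+++ than in GFP+, 6 became 10 with the floor at the 40th percentile (18.9%, beside 11.8%), 2 with the median over probe sets (4.35%, beside 5.99%) and 12 at 1.5-fold (26.1%, beside 18.2%). The cause of these changes was not tested. Probe sets under the floor on both arrays enter a median over probe sets at 0. Of 265 values of single called genes under these alternatives, 207 moved by less than the SD between probe sets and 58 by more. A gene that kept its probe set, or lay above both floors, could not move under those settings. With the median over probe sets 24 values moved by less and 24 by more. With median scaling 2 values, both within 2-fold, changed sign: Epha7 in GFP+++ over GFP- (0.08) and Ephb3 in GFP+++ over GFP+ (0.01). Leaving out Unc50, Unc5cl and Plxna4os1, an alternative chosen after seeing the data, changed no count of calls. Signals near the floor limit 12 of the 51 folds in GFP+++ against GFP- to bounds.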

Other observations

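The 17 guidance genes that did not pass the floor on any array were Epha1, Epha2, Epha4, Epha6, Epha8, Epha10, Ephb6, Ntn3, Ntn5, Robo3, Robo4, Sema5b, Sema6b, Slit3, Unc5a, Unc5d and the transcript Plxna4os1. Their highest signal was 98.1, that of Epha2 in GFP+. A signal under the floor does not show that a gene was not expressed. Of the genes that match by name only, Unc50, known from other work for the trafficking of acetylcholine receptors, had signals of 4156 (GFP+++), 4372 (GFP+) and 3768 (GFP-), and Unc5cl passed the floor in GFP+++ alone, with 113.

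The members nearest to the 2-fold threshold were Efna1 (log2 -1.08) inside it and Plxnd1 (-0.82) outside it in GFP+++ over GFP-, Plxna2 (-1.02) and Sema3c (-0.92) in GFP+ over GFP-, and Epha7 (-1.04) and Sema4a (-0.92) in GFP+++ over GFP+. On the higher side the next genes after Dcc were Plxna1 (0.76) in GFP+++ over GFP- and Efna2 (0.55) in GFP+++ over GFP+.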
